A study of Mus musculus with 12 samples.

Results

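Adult neurogenesis and proliferation genes were followed as a set of 10 genes in hippocampal RNA sequencing of mice with low or high fear extinction. They were Mki67, Top2a, Ccnd2, Eomes, Neurod1, Igfbpl1, Sox11, Dcx, Draxin and Calb2. They were chosen by gene symbol, and each of the 10 matched 1 row among the 52636 genes in the deposited tables. The mice were wild-type C57BL6/J animals aged 18 weeks and fell into 4 groups of 3: low-extinction males, high-extinction males, low-extinction females and high-extinction females. Fear extinction is the waning of a learned fear response when its trigger returns without harm, and the groups separate animals that extinguished poorly from animals that extinguished well. All mice were wild type, and the groups differ in behaviour, not in an allele or agent named in the labels. Each of the 12 libraries came from the hippocampus of a different mouse.

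In the adult dentate gyrus of rodents, radial glia-like stem cells give rise to dividing intermediate progenitors, then to neuroblasts, and finally to granule neurons that join the existing circuit. The cells in these stages are a small minority of the hippocampus. Stage is read from transcripts: cell cycle genes mark division, Eomes marks the intermediate progenitor, Neurod1, Igfbpl1, Sox11 and Dcx mark the neuroblast and young neuron, and calretinin, the product of Calb2, appears for a short time in young granule neurons of the mouse. Several of these genes are also used elsewhere in the hippocampus, among them Ccnd2, and Calb2 in interneurons and mossy cells. In RNA from whole tissue, fewer cells of a type and less RNA per cell cannot be told apart.

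Levels are the deposited TPM values, a transcript abundance scale whose values correct for transcript length and add up to one fixed total per library. Differences are low minus high extinction throughout, on a log2 scale. Each library had 18170 to 19062 genes at 1 TPM or more. Read depth is unknown for single libraries; the authors' mean normalized counts came to 42.6 M over all genes for males and 43.4 M for females. The share of ribosomal RNA-derived transcripts was highest, at 20.4% of TPM, in high-extinction male replicate 1, and lay between 5.96% and 13.5% in the other 11 libraries. Xist, transcribed in females from the inactive X chromosome, was at least 179.95 TPM in each female library and at most 0.822 TPM in each male library. Hippocampal neurons were present throughout: 8 markers of mature granule neurons summed to between 225 and 301 TPM in each library, and none was at 0 in all. The tables of the 2 sexes were made separately, so sex and table cannot be told apart.

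Promoters are shown for 3 of the genes: Mki67 and Top2a, both expressed in dividing cells, and Eomes, the gene of the set with the largest difference between extinction groups in females. The windows run from 250 bases before to 50 bases after the RefSeq start on GRCm38.p6, given 5′ to 3′ on the gene's strand. Capitals mark matches, on either strand, to CCAAT, the box bound by NF-Y, and to TTTGAA or TTCGAA, the letters of the cell cycle genes homology region. Mki67 lies at chr7:135716330-135716629 on the minus strand, Top2a at chr11:99024140-99024439 on the minus strand, and Eomes at chr9:118477939-118478238 on the plus strand.
Mki67: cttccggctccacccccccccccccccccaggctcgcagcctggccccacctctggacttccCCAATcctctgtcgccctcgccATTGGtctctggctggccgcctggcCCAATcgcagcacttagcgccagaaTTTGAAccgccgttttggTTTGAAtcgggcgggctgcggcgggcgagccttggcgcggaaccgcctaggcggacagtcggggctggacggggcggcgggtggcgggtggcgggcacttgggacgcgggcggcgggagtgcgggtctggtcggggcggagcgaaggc
Top2a: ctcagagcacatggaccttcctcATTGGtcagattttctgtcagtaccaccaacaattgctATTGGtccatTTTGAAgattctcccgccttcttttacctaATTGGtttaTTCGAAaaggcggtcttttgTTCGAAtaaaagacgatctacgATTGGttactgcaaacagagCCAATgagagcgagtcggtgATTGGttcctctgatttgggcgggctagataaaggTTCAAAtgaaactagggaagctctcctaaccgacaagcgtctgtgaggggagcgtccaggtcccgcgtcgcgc
Eomes: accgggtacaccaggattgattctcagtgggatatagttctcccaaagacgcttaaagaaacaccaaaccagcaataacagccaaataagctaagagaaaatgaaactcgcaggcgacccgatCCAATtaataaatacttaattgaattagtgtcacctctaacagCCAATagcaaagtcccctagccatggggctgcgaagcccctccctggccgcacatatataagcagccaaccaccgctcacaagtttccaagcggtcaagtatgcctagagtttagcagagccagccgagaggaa

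The Top2a window held 6 matches to CCAAT and 4 to the homology region, and the Mki67 window held 3 and 2. The Eomes window held 2 matches to CCAAT and 0 to the homology region. Of 32851 RefSeq mouse windows of the same length, 37.4% held CCAAT and 19.2% held TTTGAA or TTCGAA. Windows were given for 7 of the 10 genes. Among the other 4, Dcx with 2 windows had 2 matches to CCAAT, Sox11 had 1 to CCAAT and 1 to the homology region, and Neurod1 and Draxin had 0 of both. E-boxes (CAGATG or CAGCTG), the kind of element bound by Neurod1, were found once in Sox11 and once in Draxin, against 30.6% of all windows, and ACAAT, a core bound by Sox proteins, once in Top2a, against 31.0%. No match of one motif overlapped a match of another.

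The levels of the 10 genes spanned a wide range. Over the 12 libraries Ccnd2 averaged 50.7 ± 10.1 TPM and Calb2 37.8 ± 11.6 TPM (SD, n = 12), and Ccnd2 was above Calb2 in 9 of 12 libraries. Neurod1 followed at 19.5 ± 1.58 TPM and lay above Dcx in all 12. Dcx averaged 7.90 ± 1.72 TPM and Sox11 7.51 ± 0.517 TPM, and their order changed between libraries, with Dcx above in 7 of 12. The remaining genes were near 1 TPM or below it. Igfbpl1 averaged 1.59 ± 0.811 TPM, Mki67 0.989 ± 0.110 TPM and Eomes 0.875 ± 0.681 TPM, and Mki67 was above Eomes in only 7 libraries. Top2a averaged 0.582 ± 0.351 TPM and Draxin 0.277 ± 0.0621 TPM. All 10 genes passed the minimum mean of 0.1 TPM used for testing, and at a minimum of 1 TPM 6 would have passed in males and 7 in females.

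**Figure D1:**
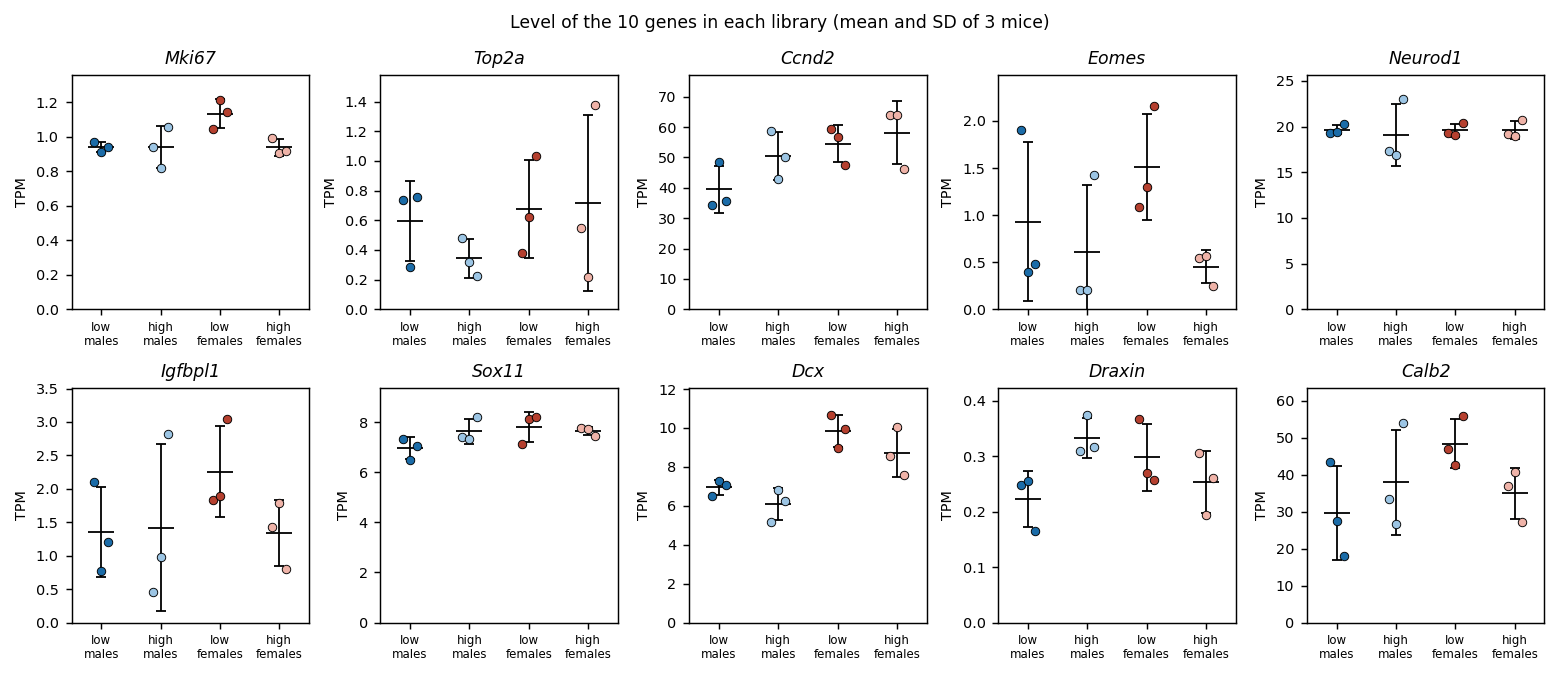
Level in TPM (linear axes from 0) of each of the 10 genes in every library, by group, with low extinction left of high extinction in each sex; points are mice, and bars are the mean and SD of 3 mice, cut off at 0 where the SD is larger than the mean. Eomes, Igfbpl1, Mki67 and Calb2 separate low from high extinction in females, Draxin separates them in males, and Dcx is higher in each female than in each male library.

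Of the 10 genes, 1 was called different between the extinction groups in each sex, and not the same gene. In the authors' deposited DESeq2 table for males, 1 of the 10 was called at an adjusted p under 0.05, Ccnd2, which was lower in low-extinction males; of all genes with an adjusted p, 0.504% were called. In the authors' deposited table for females, 1 of 9 with an adjusted p was called, Eomes, which was higher in low-extinction females, beside 0.857% of all genes. With limma on the TPM, 0 of 10 were called in males, where 0% of 27814 genes were called, and 0 of 10 in females, where 0.0107% of 28156 genes were called. Unadjusted p-values of limma were under 0.05 for 0 of the 10 genes in males and 2 in females, beside 1681 and 2175 of all genes. Low and high libraries did not overlap for 1 of 10 genes in males, Draxin, beside 11.2% of all genes, and for 4 of 10 in females, Mki67, Igfbpl1, Eomes and Calb2, beside 14.5% of all genes. All 4 were higher in low-extinction females, where the limma change on TPM was above 0 for 66.5% of all genes. With libraries scaled to a common median that share was 39.5%. In males the count of genes without overlap was 3 without replicate 1 or replicate 2 of the low group or replicate 3 of the high group. It was 4 without replicate 2 of the high group, and in females it was 4 or 5 whichever library was left out. Groups with 1 mouse fewer separate more easily, and the share of all genes was not computed for them. These counts therefore cannot be set beside 11.2% or 14.5%.

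Over the set, the authors' deposited changes had a median of -0.05 in males, with 5 of 10 above 0, beside -0.01 and 48.4% for all genes. In females the authors' deposited changes had a median of 0.18, with 6 of 9 above 0, beside -0.01 and 44.8% for all genes. The limma changes on TPM had a median of 0.03 in males and 0.18 in females, beside -0.02 and 0.08 for all genes. With libraries scaled to a common median, the median in females was 0.04 for the set and -0.05 for all genes, so small changes in females depend on the scaling.

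The genes of cell division gave no common direction. Mki67 encodes the proliferation antigen Ki-67 and lies at chromosome 7, 135689784 to 135716361 (GRCm38, GENCODE M21, minus strand), where it overlaps the opposite-strand gene Gm45240, listed at 0 to 0.448 TPM. Mki67 had 0.970, 0.909 and 0.944 TPM in low-extinction males, against 0.943, 0.820 and 1.06 TPM in high-extinction males. The male groups overlapped, and the means were equal to within 0.01 on the log2 scale (limma adjusted p = 0.998). In females it had 1.04, 1.21 and 1.14 TPM at low extinction, against 0.995, 0.904 and 0.919 TPM at high extinction. Each low-extinction female was above each high-extinction female, with means of 1.13 ± 0.0841 and 0.940 ± 0.0489 TPM (SD, n = 3 each). The difference was 0.25 with a standard error of 0.20 (limma adjusted p = 0.783), the exact permutation test gave p = 0.1, the smallest that 3 against 3 mice allow, and the authors' deposited change was 0.18 with a standard error of 0.16 (DESeq2 adjusted p = 0.781).

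Top2a encodes DNA topoisomerase II alpha, which untangles chromosomes before division, and lies at chromosome 11, 98992943 to 99024189 on the minus strand. The small genes Gm26394 and Gm23451, annotated within it, reached at most 0.602 and 0.274 TPM. Top2a had 0.738, 0.285 and 0.759 TPM in low-extinction males, against 0.483, 0.320 and 0.225 TPM in high-extinction males. Among females, Top2a had 0.376, 0.623 and 1.03 TPM at low extinction, against 0.551, 0.219 and 1.38 TPM at high extinction. The groups overlapped in both sexes, and the highest of the 12 values belonged to a high-extinction female. The TPM difference in males was 0.60 with a standard error of 0.44 (limma adjusted p = 0.909), whereas the authors' deposited change from normalized counts was 0.01 with a standard error of 0.37. In females the TPM difference was 0.11 and the authors' deposited change 0.04, both within 1 standard error of 0, and scaling to a common median turned the TPM difference to -0.02.

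Ccnd2 encodes cyclin D2, a D-type cyclin that drives entry into the cell cycle and is needed for adult neurogenesis in mice. It lies at chromosome 6, 127125162 to 127152193 on the minus strand. It had 34.4, 48.5 and 35.5 TPM in low-extinction males, against 58.7, 42.8 and 50.2 TPM in high-extinction males. Of the low-extinction males 2 lay below every high-extinction male, and the other overlapped them. The means were 39.5 ± 7.82 and 50.6 ± 7.96 TPM (SD, n = 3 each), a difference of -0.36 with a standard error of 0.17 (limma adjusted p = 0.829; exact permutation p = 0.2). In the authors' deposited table Ccnd2 fell by 0.37 on the log2 scale with a standard error of 0.07, which is 1.29-fold higher in high-extinction males (DESeq2 adjusted p = 0.000721), at a mean normalized count of 4979.

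In females Ccnd2 had 59.2, 56.8 and 47.6 TPM at low extinction, against 64.0, 64.1 and 46.1 TPM at high extinction. The groups overlapped, with means of 54.6 ± 6.11 and 58.1 ± 10.3 TPM (SD, n = 3 each) and a TPM difference of -0.08 (limma adjusted p = 0.911). The authors' deposited change in females was -0.16 with a standard error of 0.06 (DESeq2 adjusted p = 0.217). The male change minus the female change was -0.21 with a standard error of 0.09 from the authors' deposited values and -0.28 with a standard error of 0.24 from TPM (limma adjusted p = 0.837). Leaving out 1 male library at a time gave TPM differences between -0.52 and -0.25; the smallest was without high-extinction male replicate 1, the library richest in ribosomal RNA. On the opposite strand 2 genes overlap Ccnd2 in the annotation, of which 9330179D12Rik was between 0.978 and 2.57 TPM and Gm43126 was listed at 0 in all libraries.

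Markers of tissue next to the ventricle, like Ccnd2, had lower means in low-extinction than in high-extinction males. Summed over 8 ependymal markers, the level was 32.9, 14.6 and 23.1 TPM in low-extinction males, against 48.1, 59.5 and 53.0 TPM in high-extinction males, and all 8 means were lower in the low-extinction males. Of 7 ependymal markers with such a value in the authors' deposited table, 5 were called lower, for example Foxj1, a regulator of cilia, with -0.96 ± 0.18 (SE; DESeq2 adjusted p = 0.00019). The sum of 10 choroid plexus markers was 986, 60.6 and 69.5 TPM in low-extinction males, against 3089, 3525 and 342 TPM in high-extinction males, and all 10 means were lower in the low-extinction males. In females the ependymal sum was 37.0, 49.2 and 56.7 TPM at low extinction, against 22.5, 53.8 and 41.2 TPM at high extinction, and the choroid plexus sum 760, 1098 and 110 TPM, against 27.3, 1286 and 1176 TPM. None of these markers was at 0 in all libraries. Within each male group the mice ran in the opposite order for Ccnd2 and for the ependymal sum. Low-extinction replicate 1 and high-extinction replicate 2 had the lowest Ccnd2 of their groups and the highest ependymal and choroid plexus sums. The part of these markers in the Ccnd2 difference was not tested.

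**Figure D2:**
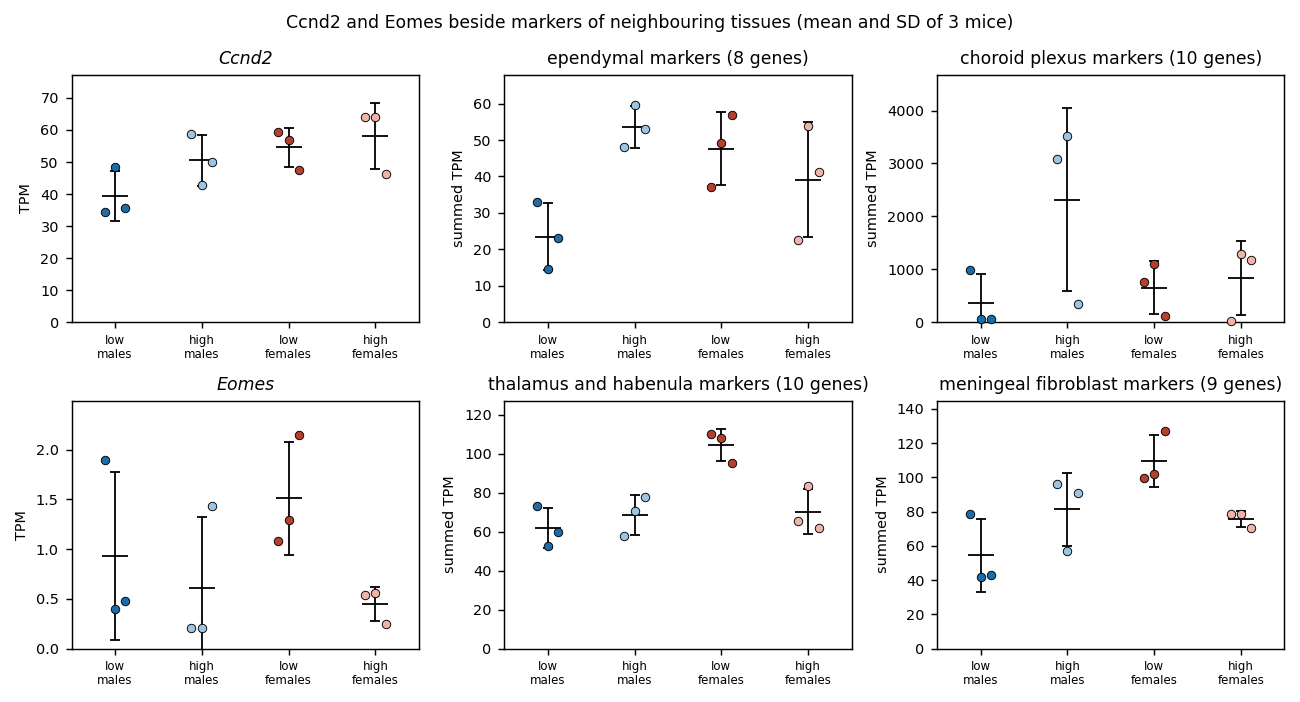
Ccnd2 (top row) beside the summed TPM of 8 ependymal and 10 choroid plexus markers, and Eomes (bottom row) beside the summed TPM of 10 thalamus and habenula and 9 meningeal fibroblast markers, in every library (linear axes from 0; bars are the mean and SD of 3 mice, cut off at 0). Ependymal markers are lower in each low-extinction than in each high-extinction male, and thalamic and meningeal markers are higher in each low-extinction than in each high-extinction female.

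Eomes had the largest change of the set. It encodes the T-box factor Tbr2, which marks intermediate progenitors, and lies at chromosome 9, 118478212 to 118486132 on the plus strand, where the opposite-strand gene Gm33460 was listed at 0 in all libraries. Among females it had 1.08, 1.3 and 2.15 TPM at low extinction, against 0.539, 0.561 and 0.249 TPM at high extinction. Every low-extinction female was above every high-extinction female, and the means of 1.51 ± 0.567 and 0.450 ± 0.174 TPM (SD, n = 3 each) differed 3.36-fold. In the authors' deposited table Eomes rose by 1.42 with a standard error of 0.34, a 2.68-fold change (DESeq2 adjusted p = 0.00721), at a mean normalized count of 71.4. The TPM difference was 1.55 with a standard error of 0.38 and did not pass limma (p = 0.0048, adjusted p = 0.484; exact permutation p = 0.1). It lay between 1.25 and 1.75 when 1 female library at a time was left out, and was 0.78 with a pseudocount of 1 TPM.

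In males Eomes had 1.90, 0.400 and 0.482 TPM at low extinction, against 0.207, 0.202 and 1.43 TPM at high extinction. In each group 1 mouse was several times above its group mates and the groups overlapped. The means were 0.928 ± 0.844 and 0.613 ± 0.708 TPM (SD, n = 3 each). The TPM difference was 0.68 with a standard error of 0.79 (limma adjusted p = 0.945) and was 0.05 without low-extinction male replicate 1 and 1.46 without high-extinction male replicate 3. The authors' deposited change was 0.55 with a standard error of 1.00 (DESeq2 adjusted p = 0.999). The male change minus the female change was -0.88 with a standard error of 1.05 from the authors' deposited values, and the limma test of that difference gave an adjusted p of 0.869. Over both sexes the difference averaged 1.12 with a standard error of 0.48, with an exact permutation p of 0.065 over 400 assignments and a limma adjusted p of 0.653.

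Markers of neighbouring tissue were also higher in low-extinction females. The sum of 10 thalamus and habenula markers was 110, 108 and 95.3 TPM in low-extinction females, against 65.5, 83.3 and 61.9 TPM in high-extinction females, and the authors' deposited table called 4 of 8 of them higher, with a median change of 0.58. The sum of 9 meningeal fibroblast markers was 99.7, 102 and 127 TPM in low-extinction females, against 78.3, 78.6 and 70.3 TPM in high-extinction females, and the authors' deposited table called 5 of 9 higher, with a median change of 0.82. In males the thalamic sum was 73.1, 52.9 and 60.1 TPM at low extinction, against 57.7, 70.6 and 78.1 TPM at high extinction, and the meningeal sum 78.7, 41.6 and 42.8 TPM, against 96.1, 57.1 and 90.6 TPM. The 2 males with the highest Eomes of their groups, low-extinction replicate 1 and high-extinction replicate 3, were also the highest of their groups for Calb2 and for the thalamic markers Zic1, Zic4 and Prkcd. Of the other genes of that list only Gbx2 followed, at no more than 0.0856 TPM in any male. Pou4f1 was at 0 in each low-extinction male. Tcf7l2, Lef1 and Tac2 were highest in neither mouse, and Cacng5 only in the high-extinction one. Slc17a6 was highest in the low-extinction mouse but was 7.02, 15.6 and 5.23 TPM in high-extinction males, lowest in replicate 3. Zic1, a zinc finger factor, had 13.8, 4.45 and 5.72 TPM in low-extinction males, against 8.61, 8.00 and 16.3 TPM in high-extinction males. The part of these tissues in the values of Eomes and Calb2, in either sex, was not tested.

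Of the factors that carry progenitors towards the neuronal state, Neurod1 and Sox11 varied least. Neurod1, a basic helix-loop-helix factor needed for the maturation and survival of new granule neurons in mice, lies at chromosome 2, 79452521 to 79456751 on the minus strand. It had 19.3, 19.5 and 20.3 TPM in low-extinction males, against 17.3, 16.9 and 23.0 TPM in high-extinction males. Female values were 19.3, 19.1 and 20.4 TPM at low extinction, against 19.2, 18.9 and 20.7 TPM at high extinction. In both sexes the low-extinction mice lay inside the range of the high-extinction mice. The TPM differences were 0.06 in males and -0.0009 in females, with standard errors of 0.13 and 0.07, and the authors' deposited changes were 0.07 and -0.08 with standard errors of 0.11 and 0.09. Neurod1 overlaps Cerkl on the same strand, which was between 2.02 and 6.79 TPM, so some reads could be shared.

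Sox11, a SoxC factor of neuroblasts and young neurons, lies at chromosome 12, 27334264 to 27342574 on the minus strand. It had 7.34, 6.48 and 7.05 TPM in low-extinction males, against 7.39, 7.32 and 8.20 TPM in high-extinction males. The groups overlapped by 1 low-extinction mouse, and the difference was -0.13 with a standard error of 0.11 (limma adjusted p = 0.921). Females had 7.14, 8.14 and 8.20 TPM at low extinction, against 7.75, 7.72 and 7.45 TPM at high extinction. The female groups overlapped, with a difference of 0.03 that turned to -0.10 when libraries were scaled to a common median. The authors' deposited changes were -0.11 with a standard error of 0.09 in males and -0.05 with a standard error of 0.08 in females.

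Igfbpl1, related to the insulin-like growth factor binding proteins and expressed in neuroblasts, lies at chromosome 4, 45809468 to 45826923 on the minus strand. It had 2.09, 0.766 and 1.21 TPM in low-extinction males, against 0.456, 0.975 and 2.83 TPM in high-extinction males. The male values overlapped widely, and their spread was larger than the difference of 0.17 (standard error 0.63). Females had 1.84, 1.89 and 3.05 TPM at low extinction, against 1.43, 1.78 and 0.799 TPM at high extinction. The female groups did not overlap, although the gap between 1.84 and 1.78 TPM was narrow. The means were 2.26 ± 0.683 and 1.34 ± 0.50 TPM (SD, n = 3 each; limma adjusted p = 0.655; exact permutation p = 0.1). The authors' deposited changes were -0.18 with a standard error of 0.46 in males and 0.42 with a standard error of 0.31 in females (DESeq2 adjusted p = 0.726).

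Dcx encodes doublecortin, a microtubule-binding protein of migrating neuroblasts, and lies on chromosome X, 143855842 to 143933311 on the minus strand. It had 6.51, 7.27 and 7.05 TPM in low-extinction males, against 5.19, 6.80 and 6.23 TPM in high-extinction males. Females had 10.6, 8.99 and 9.95 TPM at low extinction, against 8.54, 10.0 and 7.57 TPM at high extinction. The groups overlapped in both sexes, and the low-extinction mean was the higher one in both. The TPM difference was 0.20 in males and 0.18 in females, with standard errors of 0.14 and 0.13. Averaged over the sexes it was 0.19 with a standard error of 0.09 (exact permutation p = 0.06; limma adjusted p = 0.715). The authors' deposited changes were 0.10 with a standard error of 0.10 in males and 0.23 with a standard error of 0.08 in females (DESeq2 adjusted p = 0.193).

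Dcx differed more between the female and the male libraries than between the extinction groups. The 6 female libraries ran from 7.57 to 10.6 TPM with a median of 9.47, and the 6 male libraries from 5.19 to 7.27 TPM with a median of 6.66. The lowest female was above the highest male, and the female mean was 1.43 times the male mean. Dcx was the only one of the 10 genes whose female and male libraries did not overlap, which 1.06% of all genes showed. The separation was there as well after ribosomal RNA-derived and mitochondrial genes were left out, and sex and table cannot be told apart. A list of 8 genes was taken as markers of ventricular zone neuroblasts, which also carry Dcx. Gad1 of this list, at 184 to 261 TPM, was also listed as a marker of neurons in general. Neuroblasts and other neurons cannot be told apart by the 8 genes here. Gad1 and Robo2 held 84.1% to 88.2% of the summed TPM in each library. The other 6, a sum taken after the data were seen, came to between 30.4 and 43.3 TPM in low-extinction males, against 32.3 to 42.2 TPM in high-extinction males. In females the 6 came to between 39.2 and 49.7 TPM at low extinction, against 39.6 to 41.2 TPM at high extinction, and their part in the values of Dcx was not tested.

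Draxin encodes a secreted axon guidance protein that binds the netrin receptor Dcc, and lies at chromosome 4, 148098437 to 148130698 on the minus strand. It had 0.249, 0.256 and 0.165 TPM in low-extinction males, against 0.309, 0.375 and 0.316 TPM in high-extinction males. Every low-extinction male was below every high-extinction male, with means of 0.223 ± 0.0505 and 0.333 ± 0.0359 TPM (SD, n = 3 each; limma adjusted p = 0.921; exact permutation p = 0.1). The authors' deposited change was -0.53 with a standard error of 0.42 at a mean normalized count of 32.2 (DESeq2 adjusted p = 0.947). Females had 0.368, 0.271 and 0.257 TPM at low extinction, against 0.305, 0.194 and 0.262 TPM at high extinction, and the groups overlapped. The opposite-strand neighbour Mad2l2 overlaps Draxin and was at 5.71 to 9.94 TPM, well above it. Its mean was 6.13 TPM in low-extinction males and 8.30 TPM in high-extinction males, the same direction as Draxin, and strand use in counting was not given in the sources used here.

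Calb2 encodes calretinin, a calcium-binding protein of young granule neurons, interneurons and mossy cells in the mouse, and lies at chromosome 8, 110137502 to 110168210 on the minus strand. In females it had 46.9, 42.7 and 55.8 TPM at low extinction, against 36.9, 40.7 and 27.3 TPM at high extinction. The female groups did not overlap, with means of 48.5 ± 6.72 and 35 ± 6.91 TPM (SD, n = 3 each) and a difference of 0.48 with a standard error of 0.17 (limma adjusted p = 0.609; exact permutation p = 0.1). The authors' deposited change in females was 0.39 with a standard error of 0.12, 1.31-fold, and fell short of the threshold (DESeq2 adjusted p = 0.0818). At a threshold of 0.1 the authors' deposited table for females called 2 of the set, Eomes and Calb2, beside 1.28% of all genes. In males it had 43.4, 27.5 and 18.1 TPM at low extinction, against 33.6, 26.6 and 53.9 TPM at high extinction. The male groups overlapped, with a difference of -0.38 and a standard error of 0.36. The male change minus the female change was -0.86 with a standard error of 0.44 (limma p = 0.076, adjusted p = 0.728), and -0.72 with a standard error of 0.47 from the authors' deposited values. Of 8 markers of calretinin-type interneurons and mossy cells, Cck held 75.3% to 83.7% of the summed TPM in each library. The other 7, a sum taken without Cck after the data were seen, came to 89.9, 87.9 and 87.9 TPM in low-extinction females, against 89.9, 86.9 and 93.5 TPM in high-extinction females. In males the 7 came to 97.2, 82.3 and 83.2 TPM at low extinction, against 86.7, 76.4 and 106 TPM at high extinction. In males the 7 and Calb2 were both highest in low-extinction replicate 1 and high-extinction replicate 3 of their groups. With Cck, the 8 came to 455, 475 and 496 TPM in low-extinction males, lowest in replicate 1. They came to 352, 468 and 504 TPM in high-extinction males. In females the 8 came to 452, 362 and 413 TPM at low extinction, against 514, 398 and 475 TPM at high extinction. Of the 7, Npy2r, Htr3a, Drd2 and Calcrl were highest in low-extinction male replicate 1, and Vip and Penk were lowest there. In high-extinction male replicate 3, Npy2r, Htr3a, Drd2 and Penk were highest of the group. Calcrl was lowest in that mouse, and Vip and Gal were in between. The part of these cells in the values of Calb2 was not tested.

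**Figure D3:**
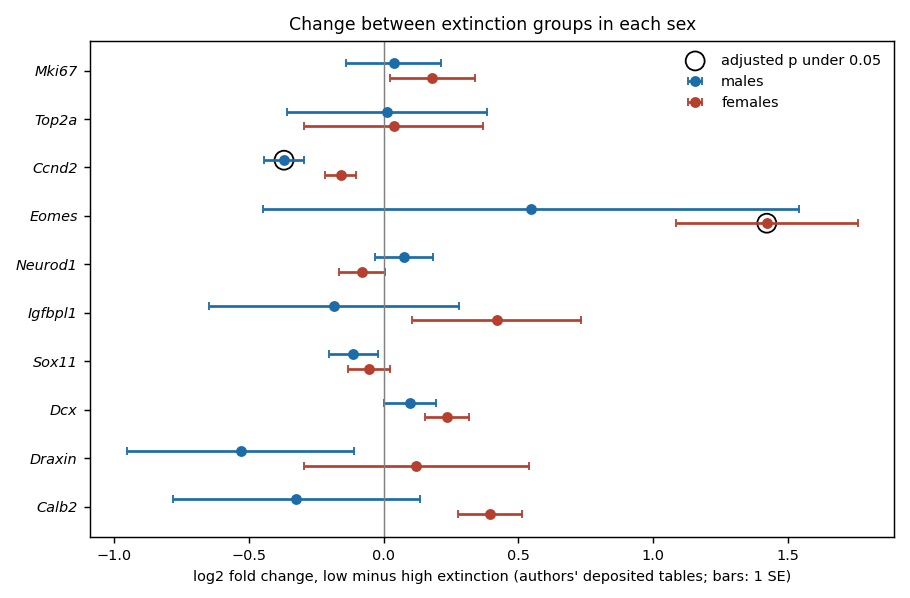
Change of each of the 10 genes as log2 fold, low minus high extinction, from the authors' deposited DESeq2 tables, turned to that direction, for males and females; bars are 1 standard error and rings mark an adjusted p under 0.05. Ccnd2 in males (-0.37) and Eomes in females (1.42) carry rings, and the male bar of Eomes is the widest.

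The tests over both sexes called none of the 10 genes. For the change averaged over the sexes, limma called 0% of 28099 genes, with 2046 at an unadjusted p under 0.05, among them 1 of the 10, Eomes. For the male change minus the female change it called 0.00356% of genes, with 1993 at an unadjusted p under 0.05 and none of the 10 among them. The averaged differences ran from -0.22 for Ccnd2 (standard error 0.12) to 1.12 for Eomes.

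Variation from mouse to mouse within the groups was compared pair by pair. After each of the 4 groups was centred on its mean, the 45 pairs had a median Pearson r of 0.11 over the 12 libraries, and 27 were above 0. By permutation within groups, 6 pairs had an unadjusted p under 0.05 for r and 0 passed after Benjamini-Hochberg adjustment over the 45 pairs. Igfbpl1 and Eomes had r = 0.92 (permutation p = 0.00321, adjusted p = 0.0722) and rho = 0.85 (permutation p = 0.00402, adjusted p = 0.0603), and r = 0.90 without the 2 libraries farthest from the median of Igfbpl1. Those 2 libraries were high-extinction male replicates 3 and 1. The r of Igfbpl1 and Eomes was 0.91 within the males and 0.97 within the females. Sox11 and Eomes had r = 0.79 (permutation p = 0.00172, adjusted p = 0.0722) and rho = 0.82 (permutation p = 0.00248, adjusted p = 0.0603), r = 0.88 without the 2 farthest libraries, and r = 0.91 within males and 0.67 within females. The 2 farthest libraries for Sox11 were low-extinction female replicate 1 and low-extinction male replicate 2.

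The other pairs with a low unadjusted p included Calb2, Mki67 and Top2a. Eomes and Calb2 had r = 0.88 (permutation p = 0.0100, adjusted p = 0.113) and rho = 0.80 (permutation p = 0.0120, adjusted p = 0.135), r = 0.71 without the 2 farthest libraries, and r = 0.87 within males and 0.91 within females. In males, low-extinction replicate 1 and high-extinction replicate 3 had the highest Eomes and Calb2 of their groups. They were also highest of their groups for Igfbpl1, Sox11 and Mki67. Leaving out the 2 farthest libraries removed both mice for Eomes and Calb2. It removed only high-extinction replicate 3 of them for Igfbpl1 and Eomes, and neither for the pairs with Sox11. These mice also had the highest Zic1, Zic4 and Prkcd, but not the highest Tcf7l2, Lef1 or Tac2 of the same marker list. The part of thalamic tissue in these correlations was not tested. Mki67 went with Sox11, at r = 0.77 (permutation p = 0.00843, adjusted p = 0.113) and rho = 0.85 (permutation p = 0.0032, adjusted p = 0.0603), with r = 0.77 without the 2 farthest libraries and 0.78 within males and 0.79 within females. Mki67 and Top2a, both expressed in dividing cells, had r of only 0.14 (permutation p = 0.654, adjusted p = 0.904) and rho of 0.24 (permutation p = 0.489, adjusted p = 0.805). Top2a ran opposite to Dcx, at r = -0.73 (permutation p = 0.0298, adjusted p = 0.224) and rho = -0.76 (permutation p = 0.0240, adjusted p = 0.180), with r = -0.61 without the 2 farthest libraries and -0.58 within males and -0.84 within females.

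**Figure D4:**
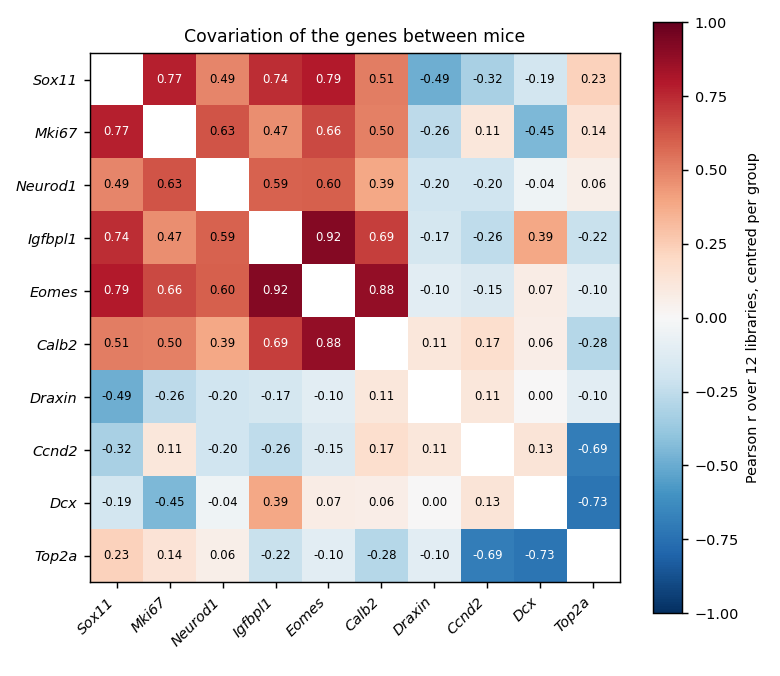
Pearson correlation between the 10 genes over the 12 libraries, on log2(TPM + 0.1) centred within each of the 4 groups; the colour and the number in each cell give r, from -1 (blue) to 1 (red). The 6 pairs among Sox11, Igfbpl1, Eomes and Calb2 are at 0.51 to 0.92, while Top2a is at -0.73 with Dcx.

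The genes most like Dcx, Neurod1 and Ccnd2 over the 12 libraries were sought among 18499 genes averaging 1 TPM or more, by Pearson r after each sex was centred. For Dcx they were 1700126G02Rik (r = 0.94), E4f1, Gas8 and Gak (each 0.92) and Adck5 (0.91). For Neurod1 they were Ap2b1 and Ndufa10 (each 0.93), Cdc42se2 (0.92), and Cplx2 and Ehd3 (each 0.91). For Ccnd2 they were Itga6 (0.88), Sec22b (0.84), Gm13187 (0.83), and Ksr2 and Dll1 (each 0.82). None of the 6 genes of the set averaging 1 TPM or more was among these, and the other 4 were not ranked.

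Genes that act upstream of or beside the set were read from 6 lists. In these limma on the TPM called 0 genes in either sex, beside 0% of all genes in males and 0.0107% in females. Of 15 neural stem cell and radial glia-like genes with an adjusted p, the authors' deposited table called 2 lower and 0 higher in low-extinction males, with 4 of 15 above 0 and a median of -0.11. Nes, the intermediate filament nestin of stem cells, had 3.87, 3.55 and 3.07 TPM in low-extinction males, against 5.31, 5.15 and 6.33 TPM in high-extinction males. The groups did not overlap, beside 11.2% of all genes in males. In the authors' deposited table nestin was 1.48-fold higher in high-extinction males (DESeq2 adjusted p = 0.00424). Vim, another intermediate filament of radial glia and of ependymal cells, had 23.3, 28.3 and 26.5 TPM in low-extinction males, against 36.3, 30.7 and 37.0 TPM in high-extinction males, and in the authors' deposited table was 1.26-fold higher in high-extinction males (DESeq2 adjusted p = 0.0257). In females the authors' deposited table called 1 of 15 higher and 0 lower, with 5 above 0 and a median of -0.02. That gene was again Vim, with 38.8, 38.5 and 36.0 TPM in low-extinction females, against 32.0, 35.7 and 24.6 TPM in high-extinction females, and the authors' deposited table had it 1.26-fold above the high-extinction females (DESeq2 adjusted p = 0.0315). The ependymal markers given above were lower in the same low-extinction males, and their part in Nes and Vim was not tested.

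Of 24 other intermediate progenitor, neuroblast and immature granule neuron genes, the authors' deposited table called 1 lower and 0 higher in low-extinction males, with 9 above 0 and a median of -0.03. It was Cd24a, a surface protein of neuroblasts and of ependymal cells, with 7.93, 5.78 and 6.15 TPM in low-extinction males, against 9.91, 9.74 and 14.6 TPM in high-extinction males, 1.86-fold higher in high-extinction males in the authors' deposited table (DESeq2 adjusted p = 0.00283). In females the authors' deposited table called 0 of 22, with 5 above 0 and a median of -0.07. The smallest p-values in that table, the authors' deposited one, were those of Bhlhe22, at -0.18 (DESeq2 adjusted p = 0.210), and of Tubb3, the neuronal tubulin, at -0.18 (DESeq2 adjusted p = 0.353).

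Of the other cell cycle genes the authors' deposited table called 0 of 25 in males, with 10 above 0, and 0 of 19 in females, with 9 above 0. The medians were -0.05 and -0.004. Among males the smallest p-values in the authors' deposited table were those of the cyclin Ccna2, at 0.65 (DESeq2 adjusted p = 0.616), and the checkpoint kinase Bub1b, at -0.62 (DESeq2 adjusted p = 0.682). Among females the authors' deposited table had them for Prc1, a cytokinesis protein, at 0.40 (DESeq2 adjusted p = 0.463), and for Aurkb, a mitotic kinase with no adjusted p, at 1.25 and a mean normalized count of 8.58.

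Partners and inhibitors of the D-type cyclins, to which Ccnd2 belongs, gave 0 of 15 calls in males and 0 of 14 in females in the authors' deposited tables, with 6 and 7 above 0. Ccnd3, a sister of Ccnd2, was at -0.30 in males with a standard error of 0.10 in the authors' deposited table (DESeq2 adjusted p = 0.247). Its TPM was 5.21, 18.5 and 7.55 in low-extinction males, against 24.7, 24.7 and 18.0 in high-extinction males, a wider gap than in the counts. Cdkn1c, which encodes the inhibitor p57, was at -1.27 with a standard error of 0.49 in males in the authors' deposited table (DESeq2 adjusted p = 0.360). In females the smallest p-values in the authors' deposited table were those of E2f1 at -0.26 (DESeq2 adjusted p = 0.658) and Rb1 at 0.10 (DESeq2 adjusted p = 0.692).

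Niche signals were called in neither of the authors' deposited tables, 0 of 23 in males with 4 above 0 and a median of -0.15, and 0 of 22 in females with 9 above 0 and a median of -0.03. Bmp6, a bone morphogenetic protein, had 4.14, 1.94 and 2.85 TPM in low-extinction males, against 9.73, 9.35 and 5.03 TPM in high-extinction males. In females Bmp6 had 7.77, 6.03 and 8.83 TPM at low extinction, against 4.63, 5.43 and 5.73 TPM at high extinction. The groups did not overlap in either sex and lay in opposite order (DESeq2 adjusted p = 0.141 in males and 0.129 in females, in the authors' deposited tables). Of all genes, 11.2% in males and 14.5% in females did not overlap. The other genes with the smallest p were the Wnt co-receptor Lrp6 in males, at -0.28 (DESeq2 adjusted p = 0.372), and Dkk3 in females, at -0.16 (DESeq2 adjusted p = 0.172), both from the authors' deposited tables.

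Of 11 growth factor genes the authors' deposited tables called 0 in males, with 5 above 0, and 1 in females, with 7 above 0. Among males the authors' deposited table had its smallest p-values for Egfr at -0.34 (DESeq2 adjusted p = 0.0928) and Igf2 at -1.62 (DESeq2 adjusted p = 0.138). Igf2, a growth factor made in the choroid plexus and meninges, was the gene called in the authors' deposited table for females, at 0.48 with a standard error of 0.09 (DESeq2 adjusted p = 3.77e-05). Its TPM did not follow: it was 24.0, 23.8 and 21 in low-extinction females, against 26.4, 19.2 and 28.2 in high-extinction females, with overlapping groups and a lower mean at low extinction. Kl of this list is also among the choroid plexus markers.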

How the data were processed

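Total RNA from hippocampi, 1 µg per mouse, was enriched for polyadenylated RNA and made into libraries, per the labels' protocols. DESeq2, StringTie 1.3.3b, HTSeq, TopHat2 and Bowtie2 are listed in the submitters' processing notes with the builds GRCm38.p5 and mm10, not which tool made which file. The authors deposited, per sex, a table of TPM and a DESeq2 table with the mean normalized count (a signal per gene), log2 fold change, standard error, test statistic (a score), p-value and adjusted p-value. TPM keeps no depth, so no count model was run here. The direction of the authors' fold is not named: its r across genes with the TPM change (low minus high) was -0.74 for males and -0.72 for females, and 101 of 101 and 133 of 134 called genes had the opposite sign, so it was multiplied by -1.

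The 12 TPM columns went to mice by the animal codes in the titles; replicate numbers follow record order and pair no mice. Correlations between libraries were 0.957 to 0.966, and 0 pairs were identical. Differences were tested on log2(TPM + 0.1), a scale that shrinks the changes of genes near 0, with limma 3.58.1 in R 4.3.3 (mean-variance trend, Benjamini-Hochberg at 0.05) for genes averaging 0.1 TPM or more, within each sex and over 12 libraries. Each gene of the set was also tested with a two-sided exact permutation of mice, 20 assignments within a sex and 400 over both. Correlations used 100000 permutations within groups. The standard error of a difference between sexes in the authors' values combines their 2 standard errors. Simulated tables with planted changes were used to test the limma step. Genes named were the 10, the 5 most alike for 3 of them, and in each list the genes called in the authors' tables or, with none, the 2 with the smallest p. The genes and lists were chosen with earlier results of these data known. Positions are from GENCODE M21 on GRCm38, which held 52403 of 52636 gene identifiers. Alternatives were other pseudocounts, filters, scalings and variance models, a joint fit, another threshold and leaving out each library. Python 3.11.15, scipy 1.17.1, statsmodels 0.14.6, pandas 2.3.3 and matplotlib 3.10.9 were used.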

Additional observations from a re-analysis of the deposited data

Results flagged for a closer look

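Vim and Bmp6 moved in opposite directions in the 2 sexes, with every low-extinction male below every high-extinction male and every low-extinction female above every high-extinction female. For Vim the male change minus the female change was -0.72 on log2(TPM + 0.1) (limma p = 0.00252, adjusted p = 0.485), and -0.67 with a standard error of 0.12 from the authors' deposited changes. For Bmp6 it was -1.91 (limma p = 0.000752, adjusted p = 0.389), and -1.86 with a standard error of 0.47 from the authors' deposited changes. Neither passed the adjusted test of the difference between sexes. Both genes were picked among the named list genes because their groups lay apart in opposite order. The p-values come from the values that picked them and are no separate test. Low and high libraries did not overlap for 11.2% of all genes in males and 14.5% in females. The share of all genes apart in opposite order was not computed. The summed ependymal and meningeal markers also had a lower mean in low-extinction males (23.5 and 54.4 TPM, against 53.5 and 81.3 TPM in high-extinction males) and a higher mean in low-extinction females (47.6 and 109 TPM, against 39.2 and 75.7 TPM in high-extinction females). Their part in Vim and Bmp6 was not tested.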

How the results depend on the processing

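No paired analysis was possible because the labels give the mice of the groups no shared replicate numbers. With 3 mice per group the exact test within a sex cannot go below 0.1, and no gene of the set was called by limma under any alternative, including those that left out 1 library. Of 310 values of the 10 genes under the other alternatives, 306 kept their direction, and the smallest adjusted p among them was 0.501. With libraries scaled to a common median, Sox11 turned to -0.10 and Top2a to -0.019 in females, and Neurod1 turned to -0.021 and Calb2 to -0.0025 averaged over the sexes; the cause was not tested. Leaving out 1 library reversed 27 of 360 values (smallest adjusted p 0.357). In males the ranges that crossed 0 were -0.019 to 0.20 for Neurod1, -0.080 to 0.087 for Mki67 and -0.39 to 0.81 for Igfbpl1. In females they were -0.0035 to 0.10 for Sox11, -0.029 to 0.039 for Neurod1, -0.42 to 0.68 for Top2a and -0.24 to 0.014 for Ccnd2. Averaged over the sexes they were -0.010 to 0.10 for Neurod1 and -0.11 to 0.20 for Calb2. For the male change minus the female change they were -0.093 to 0.11 for Dcx, -0.019 to 0.20 for Neurod1, -0.080 to 1.02 for Top2a and -1.13 to 0.067 for Igfbpl1.

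Over all genes, limma without a mean-variance trend called 9 genes in males, 6 in females and 3 for the male change minus the female change, and one joint fit called 1 in males and 0 in females. With no filter it called 4 for the male change minus the female change, and with a common median 0. Leaving out 1 library gave 2 called genes in males each time, 4 to 9 in females, 0 to 5 on average and 0 to 5 for the difference between sexes. Genes of the set without overlap then numbered 1 to 4 in males and 4 to 5 in females. Smaller groups separate more easily, and the share of all genes was not computed for these counts. At an adjusted p under 0.1, 2 of the set, Eomes and Calb2, and 1.28% of all genes were called in the authors' deposited table for females. Depth per library is unknown, which limits what can be read from Draxin, Top2a and Eomes, the lowest of the set.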
